A study of Mus musculus with 12 samples.

Results

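The 78 genes described here carry the symbols of mitochondrial ribosomal proteins. They are all protein-coding genes of GENCODE M21, an annotation of the GRCm38 mouse genome, whose symbol starts with Mrpl or Mrps. The annotation holds 22028 protein-coding genes, and 54356 of its genes, of any type, had transcripts in the deposited data. By symbol, 49 belong to the large subunit (Mrpl) and 29 to the small subunit (Mrps). 5 further symbols with these letters are pseudogenes and were not members. Poly(A) RNA was sequenced from interscapular brown fat of male wild-type C57BL/6N mice aged 20 weeks. The cold group comprised 6 mice held alone at 4 °C for 24 h, and the ctrl group comprised 6 mice from a colony kept at 22 to 24 °C. The labels attach the cold text to every sample, so how the ctrl mice were housed on the last day is not stated. The series text gives n = 3 where 6 cold samples are labelled, and the extraction text names eWAT, a white fat depot, for samples labelled as brown fat. Each library came from 1 numbered mouse, so the replicates are separate animals.

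The mitochondrial ribosome translates the few proteins encoded by mitochondrial DNA, all of them subunits of the respiratory chain or ATP synthase. Its ribosomal RNAs come from mitochondrial DNA, whereas its proteins are encoded in the nucleus, made in the cytosol and imported. The standard names of ribosomal proteins start with u or b where the protein class includes bacteria, and with m where it is assigned to mitochondrial ribosomes. Brown fat burns fuel for heat in mitochondria, and cold is its natural stimulus. In this tissue Ppargc1a, a coactivator that drives genes of mitochondrial biogenesis, had 224, 339 and 411 CPM (lowest, median and highest) in cold mice, against 44.5, 54.6 and 63.5 CPM in ctrl mice. CPM here are read counts relative to library sizes scaled with TMM, which takes them from the bulk of genes, except where library totals are named.

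Libraries held 16.0 to 31.4 M reads assigned to genes, and every member passed the filter on low counts, with a mean of 57.5 to 5636 reads per library. Of the brown adipocyte markers 14 of 14 were tested, with 6 higher and 1 lower in cold, and their summed level was 26940 to 36630 CPM in cold mice and 20860 to 29460 CPM in ctrl mice. None was at 0. The 14 skeletal muscle markers summed to 205 to 5951 CPM in cold mice and 143 to 1856 CPM in ctrl mice, and none passed the test. Of 8 fibroblast and preadipocyte markers 4 were called lower, with sums of 242 to 345 CPM in cold mice and 315 to 478 CPM in ctrl mice. Beside these counts, 16.2% of all tested genes were called higher and 15.4% lower. The part of other cells in the results was not tested. In whole tissue, fewer cells of a type and less RNA per cell cannot be told apart.

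The library of cold mouse 4 stood apart from the other 11. It was the deepest, with 31.4 M reads assigned to genes, followed by ctrl 6 with 26.8 M. The other cold libraries held 17.0 to 20.7 M, and the part of depth in these results was not tested. Of the 78 members, 62 had their highest value in cold 4. The median member there lay 0.42 above its mean over all libraries on the log2 scale, while the medians in the other cold libraries ran from -0.17 to 0.01 and those in the ctrl libraries from -0.16 to 0.11. The median of -0.17 was that of cold 15, in which 34 members had their lowest value. In cold 4 the deviation followed transcript length over all tested genes: the median was 0.38 for genes with a mean transcript length up to 500 nt, 0.25 for 1001 to 1500 nt and -0.34 above 5000 nt. Smaller trends were present in other libraries. Between the same shortest and longest genes the median fell from 0.30 to -0.13 in ctrl 6 and from 0.22 to -0.03 in ctrl 2. It rose from -0.26 to 0.10 in cold 15 and from -0.24 to 0.09 in ctrl 14. Leaving out cold 4 does not remove these trends. Members are short, with a median length of 1050 nt against 2486 nt over all tested genes, and 63 of 78 are at most 1500 nt long. The cytosolic ribosomal proteins, another family of short genes, had a median deviation of 0.51 in cold 4. Counts of calls, and the values of several named genes, are therefore also given without this library.

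**Figure D1:**
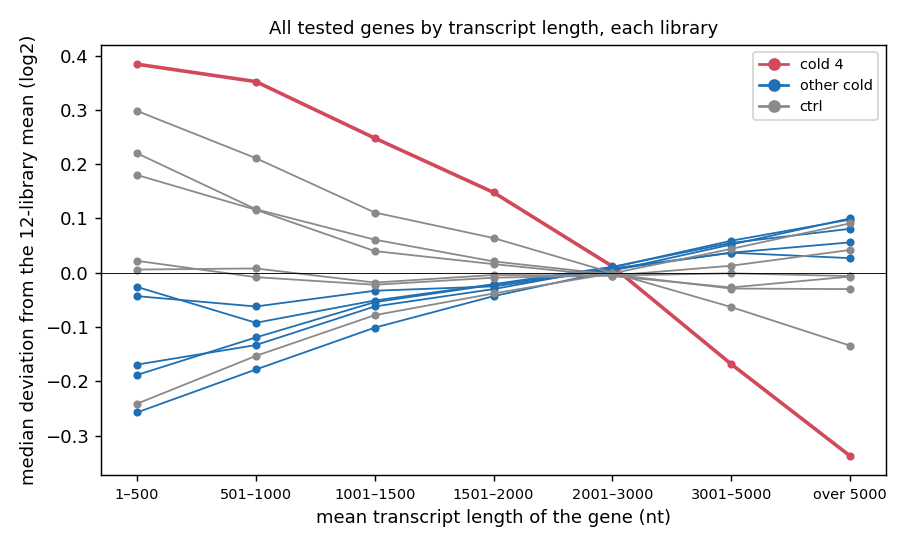
Median deviation of all tested genes from their mean over the 12 libraries (log2, y axis) by mean transcript length in nt (x axis), 1 line per library, with cold 4 in red, the other cold libraries in blue and ctrl in grey. Cold 4 falls from 0.38 for the shortest genes to -0.34 for the longest.

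Summed by symbol, Mrpl genes held 3432, 3530 and 4550 CPM of the library total (lowest, median and highest) in cold mice, against 2940, 3306 and 3498 in ctrl mice. The highest cold value was that of mouse 4, the other 5 ran from 3432 to 3619, and the groups overlapped. Summed Mrps genes held 1846, 1904 and 2458 CPM in cold mice, against 1633, 1826 and 1923 in ctrl mice, and these overlapped as well. All members together averaged 5680 ± 663 CPM in cold mice and 5061 ± 324 in ctrl mice (SD, n = 6 each), a ratio of 1.12, which became 1.07 without cold 4. On TMM library sizes the same sums averaged 5523 ± 802 in cold mice and 5237 ± 348 in ctrl mice, and 5207 ± 228 in cold mice without mouse 4, below the ctrl mean. The summed output of the family therefore differed between the groups by less than the spread between mice on the TMM scale. The ratio of summed Mrpl to summed Mrps reads ran from 1.81 to 1.88 with a median of 1.85 in cold mice, and from 1.77 to 1.83 with a median of 1.81 in ctrl mice. These ranges overlapped, and cold 4 was inside the cold range at 1.85. The sums go by symbol. The Mrps sum thus includes Mrps18a and Mrps30, which structures place in the large subunit and which were both called higher. It also includes Mrps36, described below. The ratio by structure was not calculated, so the overlap stated here covers the symbols only. No test was made over these sums.

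**Figure D2:**
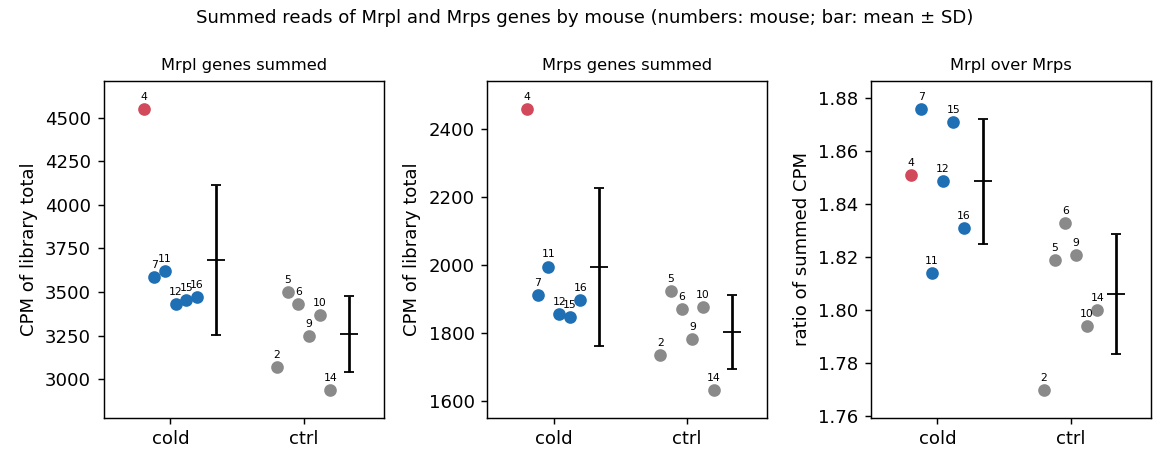
Reads of Mrpl genes, of Mrps genes (both in CPM of the library total, y axes) and their ratio in each mouse of the cold (left) and ctrl (right) groups, numbered by mouse, with mean ± SD beside them. Cold 4, in red, holds 4550 and 2458 CPM, above every other library, while its ratio of 1.85 is within the range of the other cold mice. The y axes do not start at 0.

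Gene by gene, edgeR's quasi-likelihood test over 13876 genes called 18 members higher and 4 lower in cold mice (Benjamini-Hochberg adjusted p, threshold 0.05). The other 56 did not pass. The 22 called members are 28.2% of the 78, beside 31.6% of all tested genes, of which 16.2% were called higher and 15.4% lower. The share of members called is thus near the background. The median log2 fold change was 0.04 over the members and -0.01 over all tested genes. Changes were small: called rises lay between 1.18-fold and 1.59-fold, and no member changed by 2-fold in either direction. The groups did not overlap for 9 members, 8 higher and 1 lower in cold, while 16.3% of all tested genes had groups without overlap. Without cold 4 the same 22 members were called in the same direction and 12 more were called lower, so that 18 were higher and 16 lower, and the median log2 fold change was -0.04. In that fit 18.6% of all tested genes were called higher and 17.7% lower. Without cold 15 instead, 22 members were called higher and 2 lower, with a median log2 fold change of 0.08. In the fit without cold 15, 2100 of 14007 tested genes were called higher and 1888 lower.

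**Figure D3:**
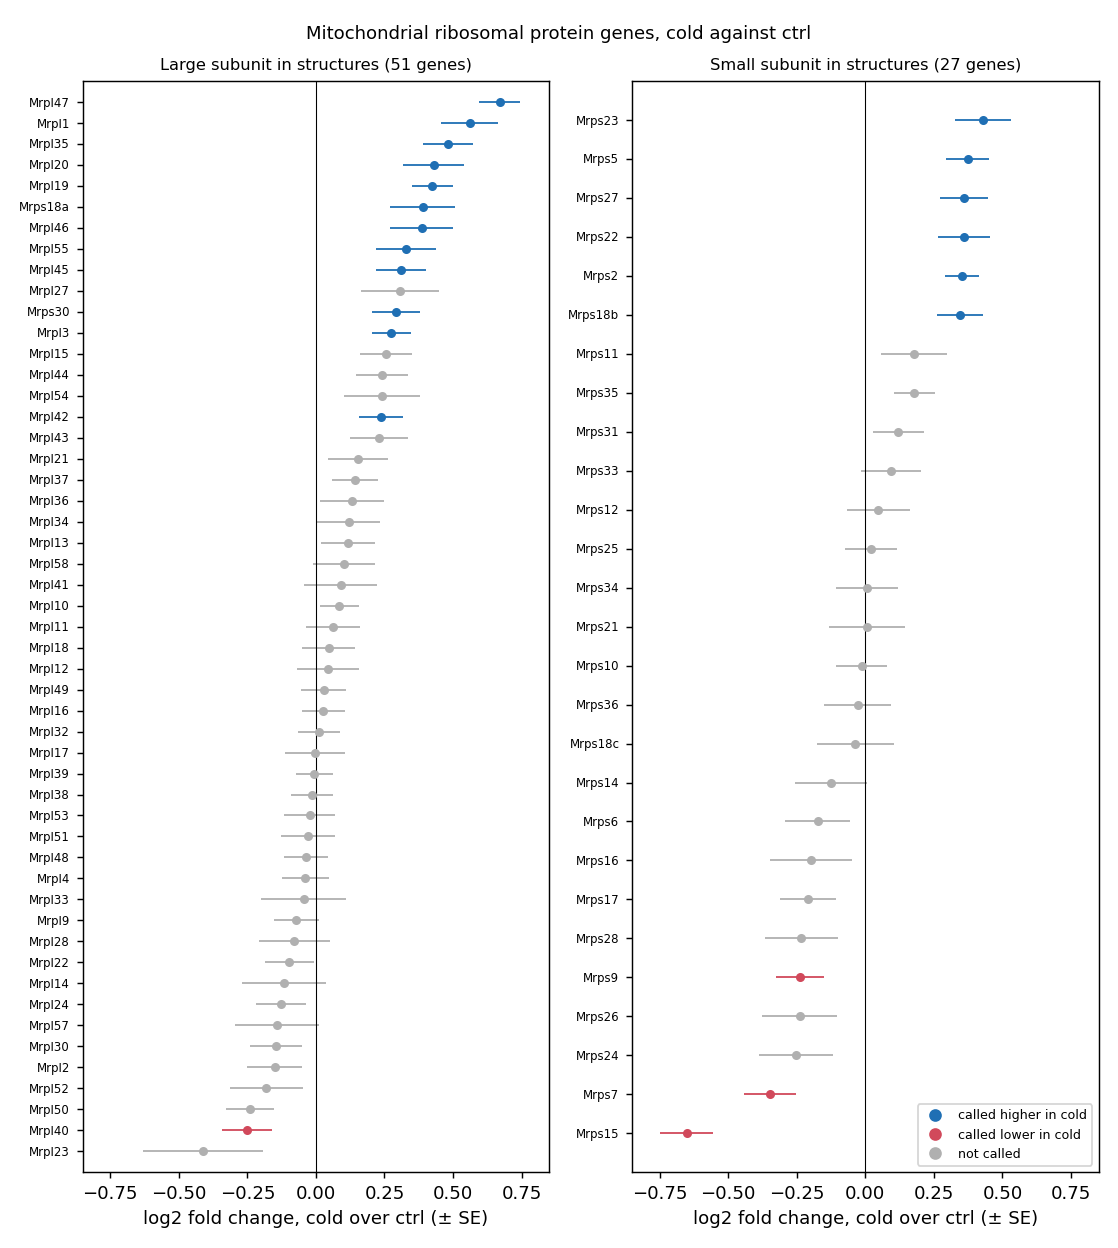
Log2 fold change of each member, cold over ctrl, with its SE (x axis) for the 51 proteins placed in the large subunit and the 27 placed in the small subunit. Of the large-subunit genes 12 were called higher (blue) and 1 lower (red), of the small-subunit genes 6 higher and 3 lower, and the grey genes did not pass.

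By symbol, 10 Mrpl genes were called higher and 1 lower, and 8 Mrps genes were called higher and 3 lower. The median log2 fold change was 0.05 for Mrpl and 0.01 for Mrps genes. Symbols do not always name the subunit: Mrps18a and Mrps30 encode proteins found in the large subunit in structures of the mammalian mitochondrial ribosome (mL66 and mL65). Placed by structure, 12 of 51 large-subunit genes were called higher and 1 lower, against 6 of 27 small-subunit genes higher and 3 lower. The 27 include Mrps36, which was not called and is placed there by its name. The small-subunit calls can be split by the standard protein name. Of the 11 small-subunit proteins with an m name, 4 were called higher and 0 lower, with a median log2 fold change of 0.12. Of the 16 with a u or b name, 2 were called higher and 3 lower, with a median of -0.15. In the large subunit, 7 of 30 proteins with a u or b name were called higher and 0 lower, and 5 of 21 with an m name were called higher and 1 lower. Over all tested genes 16.2% were called higher and 15.4% lower. These counts are descriptions of few genes, and the splits were not tested.

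Among large-subunit genes, the rise of smallest p was that of Mrpl47 (chr3:32725397-32737605, minus strand), which encodes uL29m, a protein near the exit of the peptide tunnel. It had 68.3, 72.7 and 87.1 CPM (lowest, median and highest) in cold mice, against 42.99, 48.0 and 50.0 CPM in ctrl mice. Every cold mouse was above every ctrl mouse, and cold 4 and cold 7 were the highest. The log2 fold change was 0.67 ± 0.07 (SE), adjusted p = 4.65e-06, and without cold 4 it was 0.63. Exons of Mrpl47 overlap 616 nt of Ndufb5 and 452 nt of Actl6a on the opposite strand. Those genes did not pass the test, with log2 fold changes of -0.11 ± 0.12 for Ndufb5 and 0.10 ± 0.08 for Actl6a. The library kit marks strand, per the labels, but no source used here states the strand setting of Salmon.

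Mrpl19 (chr6:81957851-81965958, minus strand), which encodes bL19m, had 41.9, 43.8 and 48.8 CPM in cold mice, against 30.8, 32.2 and 39.5 CPM in ctrl mice. The groups did not overlap, and the log2 fold change was 0.42 ± 0.08, adjusted p = 0.000378. Mrpl1 (chr5:96209493-96266727, plus strand) encodes uL1m, the protein of the mobile stalk beside the exit site of transfer RNA. It had 32.6, 41.6 and 42.4 CPM in cold mice, against 21.9, 26.3 and 32.7 CPM in ctrl mice. The groups overlapped only through cold 11, the lowest cold mouse, and ctrl 14, the highest ctrl mouse, and the log2 fold change was 0.56 ± 0.10, adjusted p = 0.000569. Mrpl35 (chr6:71812997-71826969, minus strand), which encodes bL35m, had 49.7, 53.9 and 69.8 CPM in cold mice, against 34.2, 39.8 and 44.3 CPM in ctrl mice. Its groups were apart, and cold 4 held the highest value. The log2 fold change was 0.48 ± 0.09, adjusted p = 0.000629, and 0.41 without cold 4.

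Both proteins with an Mrps symbol in the large subunit were also called higher. Mrps18a had 65.1, 70.4 and 97.7 CPM in cold mice, against 44.7, 58.6 and 65.6 CPM in ctrl mice, a log2 fold change of 0.39 ± 0.12, adjusted p = 0.019, or 0.29 without cold 4. The highest cold value was that of mouse 4, and cold 15 was just below the highest ctrl mouse. Mrps30 had 43.8, 48.2 and 60.6 CPM in cold mice, against 37.6, 39.6 and 47.8 CPM in ctrl mice, and the groups overlapped. Its log2 fold change was 0.29 ± 0.09, adjusted p = 0.0194. The other large-subunit genes called higher were Mrpl3, Mrpl20, Mrpl42, Mrpl45, Mrpl46 and Mrpl55, with log2 fold changes between 0.24 for Mrpl42 and 0.43 for Mrpl20. Mrpl45 encodes mL45, the protein that holds the ribosome at the inner membrane, and its log2 fold change was 0.31 ± 0.09. Just outside the threshold were Mrpl15 (log2 fold change 0.26) and Mrpl50 (-0.24), both at an adjusted p of 0.0507, while Mrps9, with -0.24, was just inside at 0.0485.

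In the small subunit, the rise of smallest p was that of Mrps2 (chr2:28468066-28471178, plus strand), which encodes uS2m. It had 119, 126 and 134 CPM in cold mice, against 94.1, 99.9 and 103 CPM in ctrl mice. The groups did not overlap, and cold 4, at 127 CPM, was in the middle of the cold mice. The log2 fold change was 0.35 ± 0.06, adjusted p = 0.000331, with cold 4 and 0.36 without it. Mrps5 (chr2:127587222-127606829, plus strand), encoding uS5m, had 136, 144 and 173 CPM in cold mice, against 104, 114 and 130 CPM in ctrl mice, also without overlap. Its log2 fold change was 0.37 ± 0.08, adjusted p = 0.0016.

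The other small-subunit rises were all in proteins with an m name. Mrps23 (chr11:88204388-88211507, plus strand), encoding mS23, had 123, 130 and 186 CPM in cold mice, against 86.9, 106 and 113 CPM in ctrl mice. The groups did not overlap, the value of 186 was that of cold 4, and the log2 fold change was 0.43 ± 0.10 (adjusted p = 0.00414) or 0.33 without cold 4. Mrps27 (chr13:99344786-99415562, plus strand) encodes mS27, a pentatricopeptide repeat protein, a class that binds RNA. It had 66.5, 81.8 and 94.5 CPM in cold mice, against 58.1, 62.9 and 72.5 CPM in ctrl mice, with some overlap, and a log2 fold change of 0.36 ± 0.09, adjusted p = 0.0048. Mrps22, with a log2 fold change of 0.36 ± 0.09, and Mrps18b, described next, complete the 6.

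Of the marker genes of the label, Mrps18b was called higher and Mrpl12 did not pass, and the difference between them was not tested. Mrps18b (chr17:35910379-35916389, minus strand) encodes mS40, and it had 72.0, 78.0 and 104 CPM in cold mice, against 61.1, 64.8 and 67.9 CPM in ctrl mice. The groups did not overlap, and the log2 fold change was 0.34 ± 0.08, adjusted p = 0.00516, or 0.27 without cold 4. Mrpl12 encodes bL12m, the stalk protein that recruits translation factors. It had 224, 253 and 376 CPM in cold mice, against 226, 270 and 290 CPM in ctrl mice. The cold mice surrounded the ctrl mice, with cold 4 at the top, and the log2 fold change was 0.04 ± 0.11, adjusted p = 0.803 (-0.07 without cold 4). Mrps18c, encoding bS18m and so the third member of the S18 family, had 16.7, 19.4 and 29.6 CPM in cold mice, against 17.1, 21.5 and 27.2 CPM in ctrl mice, and its log2 fold change of -0.04 ± 0.14 did not pass. Within that family, then, Mrps18a and Mrps18b were called higher and Mrps18c was not, and the differences between them were not tested.

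**Figure D4:**
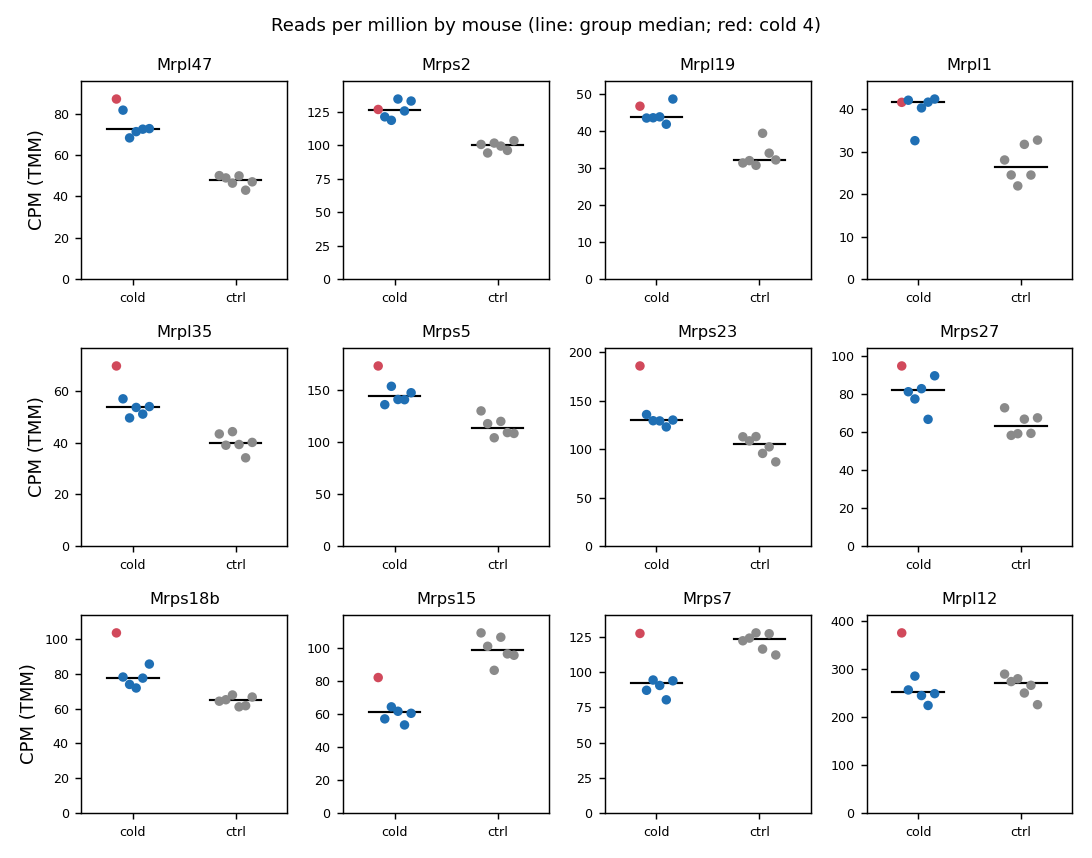
CPM (TMM) of 12 members in each mouse, cold left of ctrl, with the group median as a line and cold 4 in red. Mrpl47, Mrps2, Mrpl19, Mrpl35, Mrps5, Mrps23 and Mrps18b were higher in every cold mouse than in any ctrl mouse, Mrps15 was lower in every cold mouse, and Mrpl12 overlapped.

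Of the members, 4 were called lower. Mrps15 (chr4:126046925-126055532, plus strand) encodes uS15m, which binds the small ribosomal RNA. It had 53.2, 60.9 and 81.9 CPM in cold mice, against 86.3, 98.5 and 109 CPM in ctrl mice. Every cold mouse was below every ctrl mouse, with cold 4 the nearest, and the log2 fold change was -0.65 ± 0.10, adjusted p = 7.76e-05, or -0.74 without cold 4. Mrps7 (chr11:115603925-115608036, plus strand) encodes uS7m, a protein of the head of the subunit. It had 80.4, 92.2 and 128 CPM in cold mice, against 112, 123 and 128 CPM in ctrl mice. Cold 4 alone lay among the ctrl mice, and the log2 fold change was -0.35 ± 0.10, adjusted p = 0.0105, or -0.44 without it. Its exons overlap 127 nt of Gga3 and 119 nt of Mif4gd on the opposite strand. Gga3 did not pass, with a log2 fold change of 0.20 ± 0.09, and Mif4gd was called lower, with -0.32 ± 0.08.

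Mrps9, encoding uS9m in the head of the small subunit, had 48.6, 51.6 and 65.5 CPM in cold mice, against 55.2, 61.4 and 74.1 CPM in ctrl mice, a log2 fold change of -0.24 ± 0.09, adjusted p = 0.0485. Mrpl40, encoding mL40, had 28.5, 32.6 and 41.9 CPM in cold mice, against 36.8, 39.3 and 43.5 CPM in ctrl mice, a log2 fold change of -0.25 ± 0.09, adjusted p = 0.0441. In both, cold 4 was the cold mouse that lay among the ctrl mice. Each lost its call without any 1 of 10 mice: cold 7, 11, 12, 15 or 16 and ctrl 2, 6, 9 or 10 for both genes, ctrl 14 for Mrpl40 and ctrl 5 for Mrps9. The adjusted p then reached 0.109 for Mrpl40 and 0.133 for Mrps9. Of the rises, Mrpl42 lost its call without cold 7, cold 12, ctrl 9, ctrl 10 or ctrl 14, and Mrpl55 without ctrl 2, ctrl 9, ctrl 10 or ctrl 14. Mrps15 and Mrps7 kept theirs whichever mouse was left out. The 3 small-subunit genes called lower, Mrps9 with its unstable call among them, encode proteins with a u name, and this split was not tested.

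The 12 further members called lower in the fit without cold 4 were Mrpl2, Mrpl14, Mrpl23, Mrpl24, Mrpl30, Mrpl50, Mrpl52, Mrps16, Mrps17, Mrps24, Mrps26 and Mrps28. Of these, Mrpl50 was also called lower without ctrl 5 or without ctrl 10. The log2 fold changes of the 12 lay between -0.41 and -0.12 with cold 4 and between -0.57 and -0.20 without it. A difference by length remained between the groups in that fit. For all tested genes of 501 to 1000 nt, the median deviations of the other cold libraries ran from -0.18 to -0.06. Those of the ctrl libraries ran from -0.15 to 0.21. When the trend of each library on transcript length was removed as an offset and all 12 libraries were kept, 30 members were called higher and 6 lower, with a median log2 fold change of 0.09. In that fit 19.3% of all tested genes were called higher and 17.6% lower. The 22 members called without the offset were again called in the same direction. The further falls with the offset were Mrpl50 (log2 fold change -0.24) and Mrps17 (-0.16), both among the 12 above. The number of further calls, and whether they were rises or falls, thus depended on how cold 4 and transcript length were treated.

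**Figure D5:**
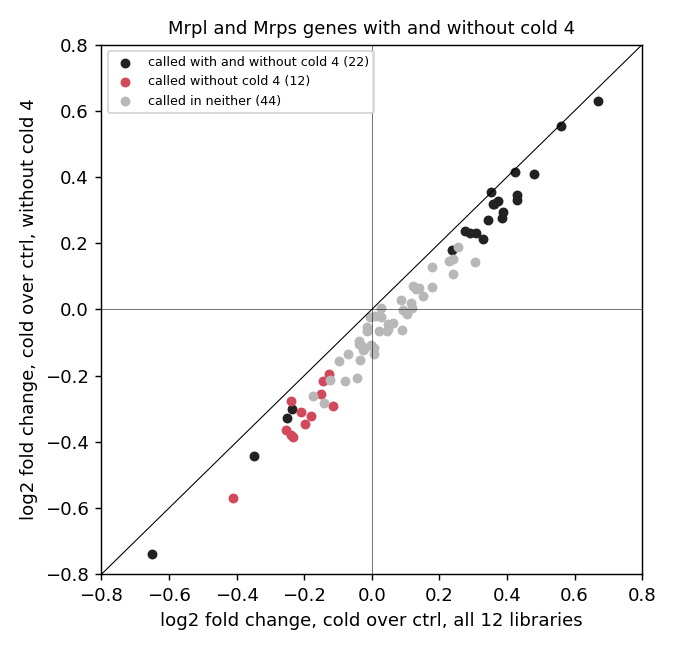
Log2 fold change of each member, cold over ctrl, in all 12 libraries (x axis) and without cold 4 (y axis), with the line of equality. The 22 members called in both fits are black, the 12 called only without cold 4 are red, and the 44 called in neither are grey. All points but that of Mrps2 lie below the line.

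Levels between members can be compared only per length. In CPM per kb of annotated transcript (mean of the 12 libraries), Mrpl34 was highest at 279, followed by Mrpl42 at 273 and Mrps36 at 219, with Mrpl12 next at 207. The lowest were Mrpl23 at 2.37, Mrpl1 at 11.2 and Mrpl19 at 13.1. With Salmon's effective length in place of the annotated one, 8 of the 10 highest were the same. In CPM, Mrpl34, encoding bL34m, had 143, 163 and 245 in cold mice and 140, 163 and 183 in ctrl mice, and its log2 fold change of 0.12 ± 0.12 did not pass. The value of 245 was that of cold 4, and without it the log2 fold change was 0.005. Mrpl42, encoding mL42, had 168, 191 and 237 CPM in cold mice, against 156, 166 and 176 CPM in ctrl mice. Only cold 15 lay among the ctrl mice, and the log2 fold change was 0.24 ± 0.08, adjusted p = 0.0323. Mrps36, named as a small-subunit protein but known as a subunit of the 2-oxoglutarate dehydrogenase complex, had 110, 136 and 186 CPM in cold mice and 117, 137 and 176 CPM in ctrl mice. Its log2 fold change was -0.03 ± 0.12.

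The low level of Mrpl23, which encodes uL23m at the tunnel exit, is uncertain. A stretch of 540 nt of its transcript is identical to the processed pseudogene Mrpl23-ps1, so reads from it cannot be assigned to 1 of them. Mrpl23 had 1.49, 2.17 and 3.52 CPM in cold mice, against 1.85, 3.30 and 3.92 CPM in ctrl mice, while Mrpl23-ps1 was listed at 20.9, 21.6 and 32.96 CPM in cold mice and 20.5, 26.0 and 30.4 CPM in ctrl mice. Summed, they had 26.1 ± 5.28 CPM in cold mice and 29.1 ± 3.598 CPM in ctrl mice (SD, n = 6 each), and the sum would rank 48 of 78 per kb. Of the members, 20 share at least 200 nt at 97% identity or more with a transcript of another gene, and in 3 of them (Mrpl23, Mrps24 and Mrps26) the other gene held at least 10% as many reads as the member.

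Transcript usage, the share of a gene's reads taken by each of its transcripts, could be tested in 62 members. It was called changed for 2 of them, Mrpl32 and Mrpl52, beside 1.45% of 7233 genes. Mrpl32 encodes bL32m, a large-subunit protein whose cleavage after import is a known step of ribosome assembly. Its gene total did not pass the test (log2 fold change 0.01 ± 0.08), with 26.9, 28.1 and 31.8 CPM in cold mice and 24.4, 29.3 and 30.2 CPM in ctrl mice. The protein-coding transcript Mrpl32-202 took 20.2%, 22.98% and 28.6% of the reads of the gene in cold mice, against 12.9%, 15.3% and 20.8% in ctrl mice. The intron-retaining transcript Mrpl32-204 took 2.21%, 2.70% and 3.51% in cold mice, against 3.15%, 5.40% and 7.88% in ctrl mice. It is sparse, with a mean of 0.81 CPM in cold mice and 1.52 CPM in ctrl mice. The largest share was that of Mrpl32-201, annotated to nonsense-mediated decay, with medians of 57.9% in cold mice and 61.1% in ctrl mice. The groups overlapped in the shares of these transcripts. The adjusted p of the gene's usage was 0.018 with edgeR's diffSpliceDGE.

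Mrpl52, encoding mL52, had 16.9, 19.9 and 31.3 CPM in cold mice, against 19.2, 24.7 and 28.8 CPM in ctrl mice, and its log2 fold change of -0.18 ± 0.13 did not pass. The main transcript Mrpl52-201 took 78.9%, 82.5% and 87.1% of its reads in cold mice, against 88.3%, 90.9% and 92.1% in ctrl mice. The second protein-coding transcript, Mrpl52-204, took 8.72%, 11.4% and 14.7% in cold mice, against 3.58%, 4.40% and 5.94% in ctrl mice. Both shares were without overlap, and the adjusted p of usage was 0.0367 with edgeR's diffSpliceDGE. With limma's diffSplice both genes were again called (adjusted p = 0.0194 for Mrpl32 and 0.0241 for Mrpl52), but with edgeR's Simes test neither was. Neither was called without ctrl 5, ctrl 14, cold 7, cold 12 or cold 16, and Mrpl52 was also lost without ctrl 2, ctrl 6, ctrl 10 or cold 11. Without cold 4, 4 of 64 members were called, these and Mrpl3 and Mrpl13. Calls rose over all genes too, to 229 of 7501 genes, against 105 of 7233 with all libraries. Over all members, protein-coding transcripts took 89.3% to 90.6% of the reads in cold mice and 87.9% to 89.5% in ctrl mice, and intron-retaining ones 3.71% to 4.49% in cold mice and 4.11% to 4.80% in ctrl mice.

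Other genes of mitochondrial translation were counted by list, and differences between the lists were not tested. The shares over all tested genes were 16.2% called higher and 15.4% called lower. Of 5 mitochondrial ribosomal proteins without an Mrp symbol, Ptcd3, which encodes the pentatricopeptide repeat protein mS39, was the one called. It had 129, 137 and 151 CPM in cold mice, against 102, 111 and 127 CPM in ctrl mice, a log2 fold change of 0.30 ± 0.07, adjusted p = 0.00496. A list of 16 translation factors and genes that work with them included Oxa1l, Lrpprc and Slirp. Of these 16, 15 were found under their symbol and tested, and 7 were called higher and 0 lower, with a median log2 fold change of 0.21. Gfm1, an elongation factor that moves the ribosome along the messenger, had 260, 282 and 305 CPM in cold mice, against 141, 170 and 188 CPM in ctrl mice, a log2 fold change of 0.76 ± 0.08, adjusted p = 2.45e-06. The groups did not overlap. The other 6 were Mtif2, Tufm, Mrrf, Guf1, Taco1 and Oxa1l, with log2 fold changes between 0.20 and 0.69. Without cold 4 this list gave 7 higher and 1 lower.

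Of 24 genes for assembly of the mitochondrial ribosome and modification of its RNA, 8 were called higher and 3 lower. The shares of all tested genes were 16.2% and 15.4%. Mterf4, a partner of the ribosomal RNA methyltransferase Nsun4, had 18.1, 21.2 and 25.7 CPM in cold mice, against 12.0, 13.5 and 17.5 CPM in ctrl mice, a log2 fold change of 0.62 ± 0.11, adjusted p = 0.000287. Rbfa, a maturation factor of the small subunit, had 32.5, 36.5 and 50.4 CPM in cold mice, against 56.9, 67.2 and 73.9 CPM in ctrl mice, a log2 fold change of -0.78 ± 0.11, adjusted p = 3.65e-05. In both genes the groups did not overlap. Of the ribosomal RNAs from mitochondrial DNA, neither passed the test, with log2 fold changes of 0.40 ± 0.35 for mt-Rnr1 and 0.54 ± 0.22 for mt-Rnr2, and poly(A) selection limits what their reads say.

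The 13 protein-coding genes of mitochondrial DNA, which the mitochondrial ribosome translates, included 8 that were called lower and 0 higher. Beside them, 15.4% of all tested genes were called lower and 16.2% higher. The median log2 fold change of the 13 genes was -0.55. The call of smallest p was mt-Cytb, a subunit of respiratory complex III, with 12820, 14780 and 17570 CPM in cold mice, against 20920, 23200 and 30940 CPM in ctrl mice, a log2 fold change of -0.73 ± 0.11, adjusted p = 8.44e-05. Every cold mouse was below every ctrl mouse. The members had a median of 0.04 in the same fit. Of 79 cytosolic ribosomal proteins, which serve the other ribosome of the cell, 1 was called higher (Rpl5, log2 fold change 0.81 ± 0.17, adjusted p = 0.00138) and 2 lower, with Rps24 at -0.45 ± 0.10 (adjusted p = 0.00183) the one of smaller p. Without cold 4, 36 of them were called lower, in the fit where 17.7% of all tested genes were, and with the length trend removed 5 were called higher and 9 lower. Their summed level was 10360 to 17780 CPM in cold mice, with cold 4 at the top, and 10300 to 14990 CPM in ctrl mice.

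RefSeq promoter windows on GRCm38.p6, reaching from 250 bases before to 50 after the start, were at hand for 69 members (75 windows). Several motifs known from genes of mitochondrial proteins were searched on both strands. The ETS motif CCGGAAG, which the factor GABP binds, was in 34.7% of members' windows, 17.0% of the windows of tested genes and 8.86% of all 32851 windows. The YY1 motif AAGATGGC was in 16.0% of members' windows, 4.27% of the windows of tested genes and 2.75% of all windows. For the NRF1 core GCATGCGC the same shares were 10.7%, 4.97% and 2.71%. For the ERR motif AAGGTCA they were 5.33%, 3.36% and 4.72%, and for CCAAT 40%, 37.1% and 37.4%. The CRE motif TGACGTCA was in 2.67% of members' windows, below the 2.92% of tested genes and above the 1.79% of all windows. By call, the ETS motif was in the windows of 6 of 17 genes called higher, 0 of 4 called lower and 20 of 48 not called. A motif is a match of letters, not a site. Below are the 150 bases before the RefSeq start of 4 of the 6 genes called higher whose window holds the ETS motif (Mrpl3, Mrps18a, Mrps22 and Mrps27), and for comparison of Mrps2, the small-subunit rise of smallest p, and Mrps15, the largest fall, with motif letters in capitals.
Mrpl3, chr9:105053118-105053267, plus strand: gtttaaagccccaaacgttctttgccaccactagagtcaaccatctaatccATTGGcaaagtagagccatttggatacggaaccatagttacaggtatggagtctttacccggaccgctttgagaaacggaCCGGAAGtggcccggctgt
Mrps18a, chr17:46110854-46111003, plus strand: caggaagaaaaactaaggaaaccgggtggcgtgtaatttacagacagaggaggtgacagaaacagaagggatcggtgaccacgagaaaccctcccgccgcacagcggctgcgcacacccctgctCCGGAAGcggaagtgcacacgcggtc
Mrps22, chr9:98601680-98601829, minus strand: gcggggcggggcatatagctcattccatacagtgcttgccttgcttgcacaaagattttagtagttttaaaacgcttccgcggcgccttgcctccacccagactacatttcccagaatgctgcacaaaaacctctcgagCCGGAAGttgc
Mrps27, chr13:99344636-99344785, plus strand: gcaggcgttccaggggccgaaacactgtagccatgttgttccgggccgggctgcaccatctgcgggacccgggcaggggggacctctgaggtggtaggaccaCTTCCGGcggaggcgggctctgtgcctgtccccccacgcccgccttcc
Mrps2, chr2:28467916-28468065, plus strand: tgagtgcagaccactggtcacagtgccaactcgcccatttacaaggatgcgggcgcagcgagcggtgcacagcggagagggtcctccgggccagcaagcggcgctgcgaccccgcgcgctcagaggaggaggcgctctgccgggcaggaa
Mrps15, chr4:126046778-126046927, plus strand: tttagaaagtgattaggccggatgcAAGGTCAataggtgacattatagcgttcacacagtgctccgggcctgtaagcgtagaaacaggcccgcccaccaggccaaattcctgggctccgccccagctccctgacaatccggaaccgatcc
The ETS motif begins 19 bases before the start in Mrpl3, 26 in Mrps18a, 11 in Mrps22 and 48 in Mrps27, where it is on the other strand. Mrpl3 also has a reversed CCAAT at 99. The stretch of Mrps2 holds none of the 6 motifs, and that of Mrps15 holds the ERR motif at 125.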

How the data were processed

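Estimated counts per transcript (Salmon NumReads, not normalized) and TPM were used as deposited by the authors, per the file headers. Of the programs in the submitters' processing notes, which give no versions, bcl2fastq, cutadapt and Salmon were recorded, with the GRCm38 build. Of 140658 transcripts, 140137 matched GENCODE M21, and the other 521 (0.0866% to 0.152% of reads) were left out. Counts were summed per gene and rounded. Genes under a minimum count of 10 (filterByExpr) were dropped, TMM factors were computed, and groups were compared two-sided with edgeR's robust quasi-likelihood test, with Benjamini-Hochberg adjustment over 13876 genes and a threshold of 0.05. SE came from the fold change and its F statistic. Usage was tested with diffSpliceDGE, which on simulated data called unchanged genes more often than its threshold allows. TPM were not compared gene by gene: in ctrl 2, 55.2% of TPM lay in transcripts of effective length below 50 nt, against 2.36% to 8.41% in the other libraries. Near copies were sought with blastn 2.17.0. Members, lists and tests were chosen with earlier results of these data known. The rule for naming took Mrpl12, Mrps18a, Mrps18b, Mrps18c, Mrps30 and Mrps36, up to 8 members of smallest p called in each direction (4 were called lower), the 3 highest and 3 lowest per kb, members called for usage, and the called gene of smallest p in each direction of each list. Further genes were named with their values known. The alternatives tried were RLE factors, library totals, DESeq2 1.42.0, limma-voom 3.58.1, no filter and a minimum count of 30. Covariates were skeletal muscle markers or mouse number in 2 classes (up to mouse 7, and above). Mitochondrial genes were also removed, and ctrl 2 with cold 15 or each mouse in turn was left out. The length offset, limma's diffSplice, and sums and lists without cold 4 were added after seeing the data. R 4.3.3, edgeR 4.0.16 and Python 3.11.15 were used.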

Additional observations from a re-analysis of the deposited data

Results flagged for a closer look

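Within a group of 6 mice, a value was marked where the gap between the most extreme mouse and its neighbour was, as a share of the range of the group, above Dixon's critical value, which chance gives in about 1 in 20 groups. In all, 56 groups of values were examined. Of the 11 marked values, 10 belonged to cold 4 and were the highest of the cold group. They were the summed reads of all members (7008 CPM), of Mrpl genes (4550) and of Mrps genes (2458), the median deviation of the members (0.416, log2), and the CPM of Mrps18a (97.65), Mrpl35 (69.83), Mrps23 (186.0), Mrps7 (127.5), Mrps9 (65.53) and Mrpl52 (31.25). The last mark was Mrpl1 in cold 11, the lowest of the cold group at 32.59 CPM.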

How the results depend on the processing

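Of the 18 members called higher and 4 called lower, 16 and 2 kept their calls whichever mouse was left out. Leaving out single mice gave 16 to 22 members higher, 2 to 16 lower (16 without cold 4), 8 to 18 Mrpl genes and 10 to 16 Mrps genes called, and 0 to 4 with changed usage. Lower members numbered 2 with library totals, with no filter, with the muscle covariate, and without ctrl 2 and cold 15. With the length offset 30 members were higher and 22 Mrpl genes were called. With library totals, which moved the median of all genes to 0.08 on the log2 scale, 1409 genes were lower against 2134. Usage was called in 1 member with a minimum count of 30 or without ctrl 2 and cold 15, and in 0 with Simes. The ratio of summed member reads was 1.27 in summed TPM, against 1.12, and 1.07 to 1.14 with single mice left out. The value in TPM is limited by ctrl 2, where 55.2% of TPM lay in transcripts of effective length below 50 nt. For lists, library totals gave 1 lower assembly gene and 1 higher ribosomal RNA. Without cold 4, ribosomal proteins without an Mrp symbol had 2 lower, the list of translation factors 1 and cytosolic ribosomal proteins 36. With the length offset, the first list had 1 lower and the cytosolic list 5 higher and 9 lower. The cause of these changes was not tested. No paired analysis was possible because the groups share no mouse numbers.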
